A study of Mus musculus with 21 samples.

Results

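Alternative first exon (AF) events are places in a gene where transcripts begin in 1 of 2 non-overlapping first exons spliced to the same acceptor. By this definition the assembled start, and not a later splice site, separates both forms. Whether each assembled start is the true 5′ end of its RNA was not tested. The events were taken from the merged long-read annotation of mouse gametes and preimplantation embryos by the event definitions of SUPPA2. In all, 1486 of the 5715 alternative splicing events (26.0%) were AF events, and they lay in 814 genes. The annotation comes from 7 PacBio pools, 1 for each stage, and the expression of its 22612 transcripts was measured in 14 short-read libraries, 2 for each stage. Sperm were labelled DBA/2J and taken from the epididymis, and oocytes were labelled C57/BL6J. The 1-cell, 2-cell, 4-cell and 8-cell embryos and blastocysts were all ♂DBA/2J x ♀C57/BL6J, from females aged 3 to 5 weeks that had been superovulated with PMSG and hCG. Oocytes were taken 20 h after hCG, and embryos were lysed at 24 to 26 h (1-cell), 46 to 48 h (2-cell), 54 to 58 h (4-cell), 68 to 70 h (8-cell) and 94 to 96 h (blastocyst). The embryos were kept in KSOM culture until these times, so time in culture rises with stage and cannot be told apart from it. Every library is amplified cDNA of pooled cells, so values are means over many embryos, and fewer cells of a type cannot be told apart from less RNA per cell. Nothing in the labels shows that the 2 batches of a stage came from different animals, and p-values measure only the spread between them.

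A first exon is chosen when RNA polymerase II initiates at its promoter. Where both starts are true 5′ ends, a change of first exon reports a change of promoter or a change in which stored transcripts remain. The fully grown oocyte stores RNA made during its growth, this maternal RNA is degraded after fertilization, and the embryonic genome becomes active in mice mainly at the 2-cell stage. Long terminal repeats of endogenous retroviruses are known to act as promoters and first exons in mouse oocytes and early embryos. An alternative first exon can change the 5′ leader alone or also the first residues of the protein.

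The first junctions below show what an AF event is in sequence. Each line holds the last 15 bases of a first exon in lower case and the first 15 bases of the shared second exon in capitals, as spliced, from GENCODE vM21 transcripts on GRCm38 (mm10). Rab7 and Tsc22d1 are shown because the share of distant starts was exchanged in them, and Cdk2ap1, Wtap and D5Ertd577e because 1 first exon of each ends alike.
Rab7 upstream: tccgttgaccctgcgCTTCAAGGATGACCT
Rab7 downstream: ggttggaaagtggagCTTCAAGGATGACCT
Tsc22d1 upstream: gacaaaggctttaagCTCTGGTGCAAGTGT
Tsc22d1 downstream: gagacttgacaatagCTCTGGTGCAAGTGT
Cdk2ap1 upstream: gttggactgcagacgGAAGTGTCCACTCAC
Cdk2ap1 downstream: ccgccctcaacgccgGAAGTGTCCACTCAC
Wtap upstream: gttggactacagactGGTGCAAGATGACCA
Wtap downstream: cctcgggctgggaagGGTGCAAGATGACCA
D5Ertd577e upstream: acactgtcacctcagGAGCCTTCTTCCTGA
D5Ertd577e downstream: gttggactacagactGAGCCTTCTTCCTGA
In each pair the capitals are the same and only the first exon differs. The first exons of Cdk2ap1 (upstream), Wtap (upstream) and D5Ertd577e (downstream) ended alike, in GTTGGACTNCAGAC followed by the last base of the exon. This motif was built from these 3 first exons after their sequences were seen. Among the 1135 AF first exons whose junction vM21 annotates, 3 (0.264%) held it in their last 30 bases. They are the same 3 first exons, so this share was fixed by the choice of the motif and is no test. Of all 83195 annotated first junctions, 19 (0.0228%) held it, and none held it on the opposite strand. No repeat annotation was used here.

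Promoter windows were read for the named events where RefSeq places a start within 50 bases, and those of Tsc22d1, Ak6 and Rab7 are shown because their start use differed most between maternal and later stages among the events with such a window. Each line gives the 60 bases from 100 to 41 before a RefSeq start on GRCm38.p6, read on the strand of the gene, with CG dinucleotides in capitals.
Tsc22d1 upstream, chr14:76488336-76488395, plus strand: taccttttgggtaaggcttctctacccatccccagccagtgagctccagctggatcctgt
Tsc22d1 downstream, chr14:76504410-76504469, plus strand: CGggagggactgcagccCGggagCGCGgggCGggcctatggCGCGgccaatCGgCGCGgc
Rab7 upstream, chr6:88045311-88045370, minus strand: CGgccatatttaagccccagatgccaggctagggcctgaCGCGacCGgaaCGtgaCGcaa
Ak6 upstream, chr13:100651243-100651302, plus strand: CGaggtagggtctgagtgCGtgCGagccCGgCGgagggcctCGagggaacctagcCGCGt
Ak6 downstream, chr13:100651507-100651566, plus strand: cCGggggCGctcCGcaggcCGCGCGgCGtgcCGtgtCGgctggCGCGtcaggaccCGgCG
The upstream Tsc22d1 window, whose start led in the maternal stages, held 0 CG dinucleotides, and the downstream one held 10. A further Tsc22d1 start, at 76487136, had no window, and its form stood at 100 and 101 TPM in sperm against 61.8 and 58.7 TPM for the downstream start. Both Ak6 windows, which RefSeq gives to Taf9, were rich in CG, with 8 upstream and 13 downstream, and the Rab7 window held 6. Over the named events of the maternal and later stages, the windows of starts with the higher share in the maternal stages held 0 (Tsc22d1), 13 (Ak6), 0 (Gm15501), 7 (Abhd6) and 1 (D5Ertd577e). Those of starts with the higher share later held 10 (Tsc22d1), 8 (Ak6), 6 (Rab7), 5 (Auh) and 3 (Lrr1), so both ranges overlapped. The median of all 32851 RefSeq windows of the same place was 1, with quartiles of 0 and 4. Windows were found for 499 of the 1486 upstream and 343 of the downstream starts, too few for a comparison over all events, and that check is void.

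Most genes had a single AF event (528 of 814), 139 had 2 and 48 had 5 or more. The highest numbers were 18 in Eif5a, a translation factor, and 15 in Ccar1, a cell cycle and apoptosis regulator, and close starts that share a donor count as separate first exons here. The 1486 events used 2078 distinct first exons. Both starts were 1149 bases apart at the median, with quartiles of 396 and 4722 bases and a range from 17 to 73968 bases. Of the events, 1401 fell in protein-coding genes and 47 in genes of long noncoding RNA, and 22 matched no vM21 gene. In 16 events the forms matched 2 genes with different symbols in vM21, so that by these labels the event compares neighbouring or nested genes.

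The starts were compared with vM21, counting a start as annotated within 300 bases of an annotated one on the same strand. Both starts were annotated in 764 events (51.4%), the upstream one alone in 374 (25.2%), the downstream one alone in 204 (13.7%) and neither in 144 (9.69%). The downstream start lay in an intron of its own gene in 780 events (52.5%) and in an exon in 596 (40.1%). The upstream start lay in an exon of the gene in 657 events (44.2%), between genes in 458 (30.8%) and in an intron of the gene in 243 (16.4%). A start only a few bases outside the annotated gene counts as between genes here, also where it is annotated by the rule above. In 260 events, vM21 has coding transcripts for both first introns and translation starts downstream of both first exons. Whether both forms then use the same start codon was not checked. In 72 both first exons hold a start codon, in 45 only the upstream one does, in 35 only the downstream one, and 16 had mixed isoforms. The other 1058 events have no annotated coding transcript for at least 1 of the first introns.

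The long-read pools differed in how many AF events their own transcripts held. The 1-cell pool held 404 and the oocyte pool 347, followed by 4-cell (320), sperm (289), 8-cell (271), 2-cell (253) and blastocyst (192). As a share of all events of the pool, AF events were 36.7% in both oocyte and 1-cell and between 22.1% and 29.3% in the other 5. With 1 pool per stage there is no replicate check of this difference.

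PSI is here the TPM of the upstream-start form over the summed TPM of both forms. It lies between 0 (only the downstream start) and 1 (only the upstream start). Between 1123 and 1433 of the events had a summed TPM of at least 1 in a library, and the median PSI of a library lay between 0.536 and 0.689. Replicates differed least in 8-cell embryos (median absolute difference of PSI 0.0318) and 4-cell embryos (0.0440), and most in 2-cell embryos (0.138) and sperm (0.0975). At the 2-cell stage 506 of 1303 events (38.8%) differed by over 0.2 between both libraries. The 2-cell libraries also differed in the summed TPM of 6 markers of the 2-cell stage, 26.2 in the lower and 447 in the higher. All 7 protamine and flagellum markers were at 1 TPM or more in both sperm libraries, as were all 7 zona and growth factor markers in oocytes and all 7 lineage markers in blastocysts. The sperm libraries also held all 5 leukocyte markers, summing to 1996 and 10238 TPM against at most 30.7 elsewhere, and the 3 measured epididymis markers, at 350 to 2046 TPM. The part of these cells in the sperm values was not tested.

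Over the 665 events with a summed TPM of at least 1 in all 14 libraries, mean PSI was most alike between neighbouring stages on either side of the 2-cell stage. Pearson's r was 0.933 between oocyte and 1-cell, 0.906 between 4-cell and 8-cell and 0.937 between 8-cell and blastocyst. It was 0.735 between 1-cell and 2-cell, 0.840 between 2-cell and 4-cell, 0.643 between oocyte and 4-cell, 0.730 between oocyte and both 2-cell and 8-cell, 0.774 between oocyte and blastocyst and 0.534 to 0.710 between sperm and the other stages. These are descriptions across events, which share libraries and genes and are not independent.

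The main comparison asked which starts differ between the maternal stages (oocyte and 1-cell, 4 libraries) and the later stages (4-cell, 8-cell and blastocyst, 6 libraries). The 2-cell stage was left out. Start use differed in many genes, and in both directions. Of 761 AF events tested, 259 (34.0%) in 176 genes were called by limma at a Benjamini-Hochberg adjusted p under 0.05 with a difference of mean PSI over 0.1, beside a background of 24% of the 3078 events of all types. The upstream start gained share in 122 and lost share in 137. Of the other types, 20.8% of 2317 events were called. By type, the share was 35.6% of 90 alternative last exons, 24.6% of 969 skipped exons and 15.5% of 581 alternative 5′ splice sites. PSI of all maternal libraries lay outside the range of all later libraries in 198 AF events (26%), against 27.4% of all events. The median absolute difference of PSI was 0.107 over the tested AF events and 0.346 over those called.

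**Figure D1:**
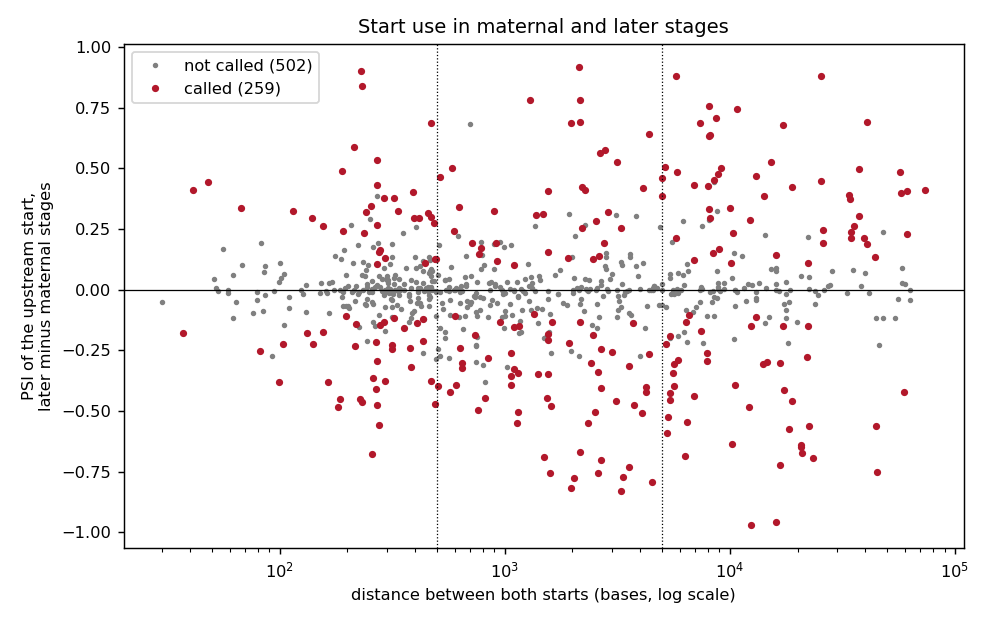
Difference of mean PSI of the upstream start (later minus maternal stages, y axis, 0 to 1 scale) against the distance between both starts (bases, log x axis), 1 point per AF event tested. Of the 761 events, 259 are called (red), and they lie on both sides of 0 in each of the distance classes set off by dotted lines at 500 and 5000 bases.

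Starts that lie farther apart were called more often. The share was 26.9% of 260 events up to 500 bases apart, 31.9% of 298 over 500 and up to 5000 bases and 46.3% of 203 beyond 5000 bases, with median absolute differences of PSI of 0.0737, 0.110 and 0.150. The share was 52.8% of 89 events in which only the downstream start is annotated, 35.0% of 203 with only the upstream one and 29.9% of 442 with both. The start that leads in the maternal stages was annotated in 190 of the 259 called events (73.4%) and the start that leads later in 192 (74.1%). Where the upstream start gained share later, the maternal start lay in an intron of its gene in 66 of 122 events (54.1%), near the 52.5% of all downstream starts, and 29 of these 66 were annotated. Where it lost share, the maternal start lay between genes in 45 of 137 events (32.8%), near the 30.8% of all upstream starts. Of these 45 starts, 27 were annotated. The differences between these classes were not tested.

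Both forms took part in the shifts. At the median of the 259 called events, the maternal-side form went from 23.1 TPM in the maternal stages to 5.71 TPM later, and the later-side form from 4.06 to 21.9 TPM. With a limit of 2-fold on TPM + 1, the maternal form was lower and the later form higher in 73 events (28.2%). The later form alone was higher in 62 (23.9%), the maternal form alone was lower in 51 (19.7%), both were higher in 36, both were lower in 33 and both stayed within 2-fold in 4. In 34 events of 26 genes (4.47% of 761, against 3.12% of all events), the main start was exchanged, with PSI over 0.5 in every library of one side and under 0.5 in every library of the other. In 20 of these the upstream start led in the maternal stages, in 14 the downstream start. All 34 were among the called events. The long-read pools mix both cDNA batches of a stage and gave the annotation on which TPM was computed, so they are no independent check of PSI. They held the first junction of the maternal-side form in oocyte or 1-cell for 184 of the 259 called events (71.0%) and in a later pool for 119 (45.9%). For the later-side form these were 101 (39.0%) and 207 (79.9%). Over the 502 events not called, the same shares were 58.4% and 61.8% for the maternal-side form and 41.6% and 63.3% for the later-side form.

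**Figure D2:**
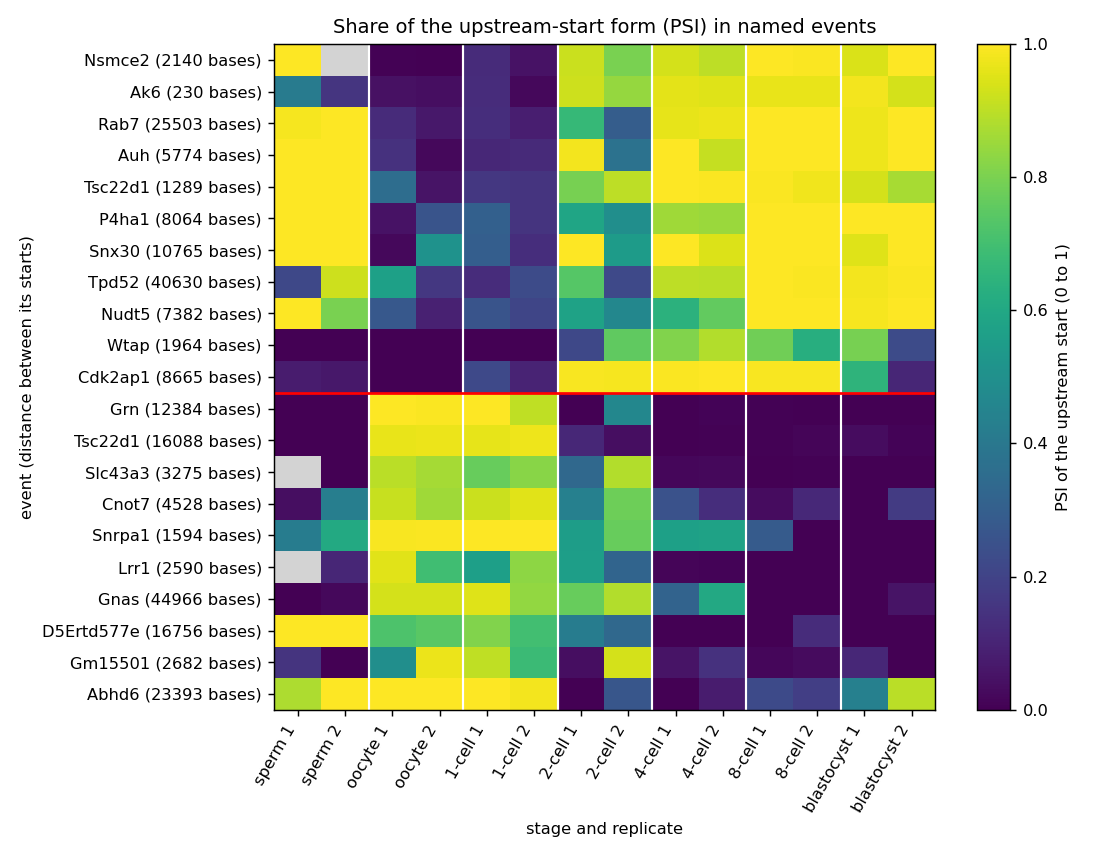
PSI of the upstream start (colour, 0 to 1) in the 14 libraries (columns, 2 per stage) for the 20 named events of the maternal and later stages and for Cdk2ap1 (rows, with the distance between the starts). Events above the red line gained share of the upstream start after the 1-cell stage, those below it lost share, and grey marks libraries in which both forms are listed at 0.

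Among the events in which the upstream start gained share, Rab7, a GTPase of late endosomes, exchanged starts 25503 bases apart on chromosome 6 (88045286 and 88019783, minus strand). Its PSI was 0.125 and 0.0660 in oocytes and 0.131 and 0.0845 in 1-cell embryos. It was 0.962 and 0.972 at the 4-cell stage, 0.997 and 0.999 in 8-cell embryos and 0.976 and 1 in blastocysts. The groups did not overlap. The downstream form stood at 112 to 647 TPM in the 4 maternal libraries and at 0 to 9.03 TPM in the 6 later ones, whereas the upstream form stood at 16.0 to 88.0 and at 156 to 332 TPM. PSI rose by 0.883 and the log2 ratio of both forms by 9.33 (SE 0.60, limma adjusted p = 2.45e-05). In vM21, coding transcripts of both forms start translation downstream of the first exons. The 2-cell libraries lay between both sides, at 0.672 and 0.293, and the sperm libraries, at 0.985 and 1, used the upstream start.

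Nsmce2 encodes the SUMO ligase of the SMC5/6 complex. Its annotated upstream start and a second start 2140 bases downstream, in an intron and 2104 bases from any annotated start, exchanged places on chromosome 15 (59374251 and 59376391). PSI was 0.00402 and 0 in oocytes, 0.121 and 0.0490 in 1-cell embryos and 0.901 to 1 in the 6 later libraries. The intronic form stood at 76.5 to 148 TPM in the maternal libraries and at 0 to 5.46 TPM later (difference of PSI 0.919, limma adjusted p = 2.45e-05). The 2-cell values of 0.919 and 0.798 were on the later side.

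Ak6, an adenylate kinase, shares its 5′ region with Taf9, a subunit of TFIID, and the upstream form of this event matches Ak6 and the downstream form Taf9, 230 bases apart on chromosome 13. By these vM21 labels the event compares 2 genes rather than 2 promoters of 1 gene, but RefSeq gives the windows of both starts to Taf9. PSI was 0.0231 to 0.126 in the maternal and 0.934 to 0.981 in the later libraries (limma adjusted p = 1.39e-05). The upstream form went from 0.611 to 3.61 TPM up to 27.2 to 236 TPM, and the downstream form from 24.96 to 33.4 TPM down to 1.77 to 11.8 TPM. Another upstream first exon with the same donor already led in the maternal stages. Against a further downstream start, 278 bases away, its mean PSI was 0.764 in maternal and 0.925 in later stages (limma adjusted p = 0.00357). Against that same downstream start, the named upstream start had 0.0423 and 0.881. The size of the change thus depended on which start of this donor was counted.

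Auh, an enzyme of leucine breakdown that also binds AU-rich RNA, had starts 5774 bases apart on chromosome 13, both annotated. PSI was 0.0230 to 0.143 in maternal and 0.913 to 1 in later libraries, and both 2-cell libraries differed widely, at 0.983 and 0.376 (limma adjusted p = 0.000223). Tpd52, a protein of membrane trafficking, had starts 40630 bases apart on chromosome 3, each with a start codon in its own first exon. Its PSI was 0.566 in 1 oocyte library and 0.129 to 0.230 in the other 3 maternal libraries, and 0.897 to 0.999 later (difference 0.690, limma adjusted p = 5.25e-05).

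In 3 further events the upstream share rose at the cost of an intronic start. P4ha1, a catalytic subunit of collagen prolyl 4-hydroxylase, had PSI of 0.0488 to 0.307 in the maternal libraries and 0.849 to 1 in the later ones, with no form above 11.0 TPM (limma adjusted p = 0.000401). Snx30, a sorting nexin, had PSI of 0.0220 to 0.508 and then 0.949 to 1 (limma adjusted p = 0.00119), and its downstream form matches Gm12543. Nudt5, an ADP-sugar hydrolase, had PSI of 0.0909 to 0.275 and then 0.641 to 1 (limma adjusted p = 0.000118). In all 3 the maternal start lay in an intron, 8060, 10777 and 4498 bases from the nearest annotated start.

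Wtap, a subunit of the complex that methylates adenosine in mRNA, used mainly the downstream start before the 2-cell stage. Its upstream form with the start at 12994170 was listed at 0 TPM in both sperm, both oocyte and both 1-cell libraries, and stood at 28.3 and 39.7 TPM in 2-cell embryos. It stood at 130 and 107 TPM at the 4-cell stage, 84.5 and 39.5 TPM in 8-cell embryos and 190 and 31.8 TPM in blastocysts. The downstream form was present throughout, at 3.79 to 32.1 TPM in maternal and 14.1 to 108 TPM in later libraries (PSI 0.228 to 0.884 later, limma adjusted p = 0.0012). A second upstream form of Wtap, with the same donor and a start 1996 bases from the downstream one, was present earlier, at 0.111 and 0.249 TPM in sperm, 0.123 and 0.477 TPM in oocytes and 1.49 and 2.16 TPM in 1-cell embryos. Its event did not pass the test (difference of PSI 0.135, limma adjusted p = 0.719).

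Cdk2ap1, an inhibitor of CDK2, used its upstream start mainly between the 2-cell and the 8-cell stage. That start, on chromosome 5 (124363087, minus strand), lies 5 bases from an annotated start and 8665 bases from the downstream one. The upstream form stood at 0 and 0 TPM in oocytes, 0.396 and 0.304 TPM in 1-cell embryos, 106 and 264 TPM in 2-cell embryos, 641 and 795 TPM at the 4-cell stage and 540 and 510 TPM in 8-cell embryos. It then stood at 27.2 and 1.89 TPM in blastocysts, whereas the downstream form stayed between 1.14 and 15.5 TPM from oocyte to blastocyst. PSI was thus at most 0.220 in the maternal libraries, 0.988 to 0.998 from the 2-cell to the 8-cell stage and 0.652 and 0.108 in blastocysts. PSI rose by 0.828 from 1-cell to 2-cell (limma adjusted p = 0.039, but 0.0501 to 0.399 when any 1 of the 4 libraries was left out) and by 0.708 between maternal and later stages (limma adjusted p = 0.000226). Only the downstream first exon holds an annotated start codon. The upstream first junction was present in the 2-cell, 4-cell, 8-cell and blastocyst long-read pools and in no earlier one.

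The 3 first exons that end in the shared motif had a higher share in the later stages in the events called, though not a higher TPM in every library. Their events were named and called before the motif was read from them, so this is a description and no test. Mean TPM of the Wtap form went from 0 in oocytes to 119 at the 4-cell stage and that of the Cdk2ap1 form from 0 to 718. The third belongs to D5Ertd577e, named Pramel48 in RefSeq, on chromosome 5 with starts 16756 bases apart. Its form with the motif is the downstream one, and PSI of the upstream start was 0.697 to 0.809 in maternal libraries and 0 to 0.126 later (limma adjusted p = 0.0012). Its downstream form stood at 1.99 to 15.8 TPM in the maternal libraries and at 62.0, 48.3, 34.0, 19.3, 11.1 and 1.31 TPM in the later ones, in the order of the stages.

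**Figure D3:**
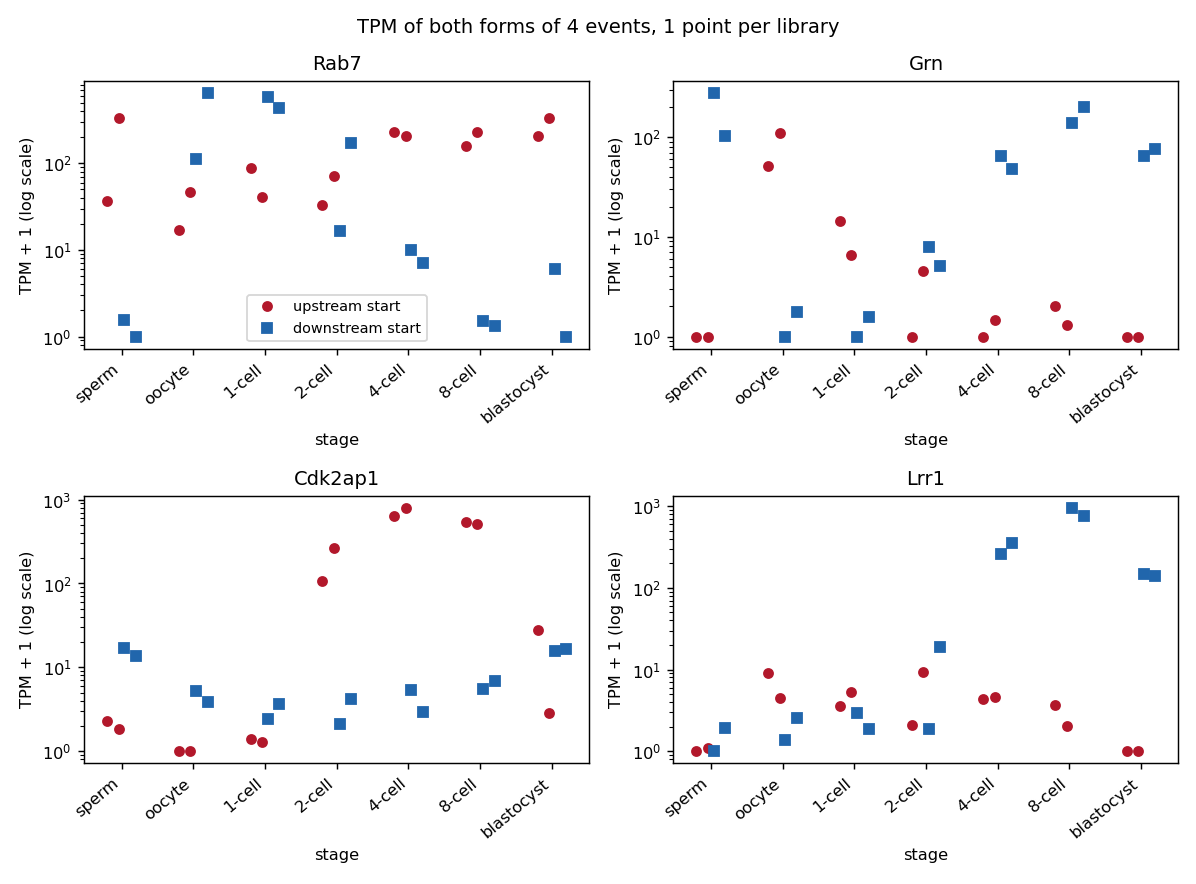
TPM + 1 (log y axis) of the upstream-start form (red circles) and the downstream-start form (blue squares) of 4 events over the 7 stages, 1 point per library. Rab7 and Grn exchange their forms, the upstream form of Cdk2ap1 is high from the 2-cell to the 8-cell stage (106 to 795 TPM), and the downstream form of Lrr1 is high from the 4-cell stage on (138 to 952 TPM).

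Among the events in which the upstream start lost share, Grn, which encodes progranulin, a secreted growth factor, had the largest difference. Its upstream start lies between genes on chromosome 11 (102418055), 12384 bases before the downstream one and 12260 bases from any annotated start. PSI was 1 and 0.993 in oocytes and 1 and 0.904 in 1-cell embryos, and at most 0.00963 in the 6 later libraries and 0 in both sperm libraries. The upstream form stood at 49.8 and 109 TPM in oocytes and 13.5 and 5.52 TPM in 1-cell embryos, and the downstream form at 46.8 to 201 TPM from the 4-cell stage on. PSI fell by 0.971 and the log2 ratio fell by 10.49 (SE 0.54, limma adjusted p = 1.12e-05). The 2-cell libraries were at 0 and 0.462.

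Tsc22d1, a transcriptional regulator of the TSC22 family, has 3 first exons joined to 1 acceptor on chromosome 14. Between the start at 76488425 and that at 76504513, PSI was 0.962 to 0.976 in maternal and 0 to 0.0333 in later libraries (limma adjusted p = 3.24e-06), and each first exon holds a start codon. Between the start at 76487136 and that at 76488425, PSI was 0.0547 to 0.357 in maternal and 0.868 to 1 in later libraries (limma adjusted p = 7.38e-05). The form at 76488425 stood at 699 to 1572 TPM in maternal and 0 to 2.92 TPM in later libraries. That at 76504513 had medians of 32.3 and 25.1 TPM, with ranges of 23.8 to 61.8 and 13.1 to 253 TPM. The form at 76487136 gained share although it went from 73.0 to 389 TPM down to 17.0 to 27.6 TPM.

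Cnot7, a deadenylase of the CCR4-NOT complex that shortens poly(A) tails, had starts 4528 bases apart on chromosome 8. The upstream form stood at 226 to 561 TPM in the maternal libraries and at 0 to 4.62 TPM later. The downstream form stood at 26.7 to 37.6 TPM and then at 1.22 to 13.6 TPM. PSI went from 0.857 to 0.955 to 0 to 0.253 (limma adjusted p = 6.66e-05). Another first exon of Cnot7, 4093 bases from the upstream start, was also called against it (PSI 0.519 in the maternal and 0.0117 in the later stages, limma adjusted p = 1.82e-05).

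Slc43a3, a nucleobase transporter, used an upstream start 3286 bases from any annotated one in the maternal stages, with PSI of 0.768 to 0.895, and the annotated start 3275 bases downstream later, with PSI of 0 to 0.0199 (limma adjusted p = 7.38e-05). Snrpa1, the A′ protein of the U2 snRNP, moved in steps. Its PSI was 0.991 to 1 in maternal libraries, 0.558 and 0.767 in 2-cell embryos, 0.569 and 0.577 in 4-cell embryos, 0.286 and 0 in 8-cell embryos and 0 in both blastocyst libraries (limma adjusted p = 0.000352).

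Lrr1, a substrate receptor of a Cul2 ubiquitin ligase, had a downstream form that was much higher later. The upstream form stood at 2.53 to 8.01 TPM in maternal libraries and at 0 to 3.66 TPM later. The downstream form stood at 0.361 to 1.95 TPM in maternal libraries, at 262 and 350 TPM at the 4-cell stage, 952 and 754 TPM in 8-cell embryos and 146 and 138 TPM in blastocysts. PSI fell by 0.757 (limma adjusted p = 1.12e-05), but with first exons of a shared donor merged the difference was -0.00351 (limma adjusted p = 0.405). The downstream first junction was already present in the oocyte and 1-cell long-read pools.

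Gnas, the imprinted gene of the stimulatory G protein, had PSI of 0.837 to 0.951 in maternal libraries, 0.317 and 0.604 at the 4-cell stage and at most 0.0543 in 8-cell embryos and blastocysts, for starts 44966 bases apart (limma adjusted p = 9.72e-05). Another Gnas event has the same upstream start and a downstream start 44816 bases away. Its PSI was 0.482 to 0.905 in maternal and 0 to 0.518 in later libraries, so the groups overlapped (limma adjusted p = 0.00541). Abhd6, a monoacylglycerol lipase, had PSI of 0.983 to 1 in maternal libraries. Its downstream form stood at 31.5 and 42.3 TPM in 2-cell embryos, 154 and 147 TPM in 4-cell embryos and 6.16 and 0.233 TPM in blastocysts, where PSI was 0.434 and 0.898 (limma adjusted p = 0.00075). Gm15501, a predicted gene, had PSI of 0.493 to 0.969 in maternal and 0 to 0.142 in later libraries (limma adjusted p = 0.00106).

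The gene families were counted by symbol, so a list can hold genes outside the family. Cdk2ap1, for instance, counts in that of cyclins and their kinases. Of the 761 tested events, 37 fell in genes of ubiquitin ligases, conjugases and deubiquitinases, and 16 of these were called, 5 with a higher and 11 with a lower upstream share later, in 10 genes that include Cul1, Cul2, Ube2d3 and Ube2f. Of 38 events in splicing and RNA-binding genes, 12 were called (5 higher, 7 lower), in 6 genes with Hnrnpf, Rbm17 and Snrpb2 beside Snrpa1. In the cytosolic ribosome and translation genes 5 of 34 were called, all with a higher upstream share, in Rpl41, Rplp0 and Rps14. Mitochondrial respiration and ribosome genes had 7 of 19 called, phosphatases 5 of 13 and solute carriers 4 of 7 (all in Slc43a3). The list of signalling kinases had 4 of 13 (Akt1s1, Map2k2, Mapkap1 and Stk35), and histone and DNA modifiers 2 of 8 (Kmt5a and Sirt4). GTPase activators and exchange factors had 2 of 2 (Rasa2). Kinesins, dyneins and tubulins (1 of 5), Zfp proteins (1 of 3), the cyclin list (1 of 3, Cdk2ap1) and proteasome genes (1 of 4) had 1 each. These counts stand beside 34.0% of all AF events, with median absolute differences of PSI of 0.146 for the ubiquitin genes and 0.0417 for the translation genes beside 0.107 over all.

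Of the 22 genes listed for alternative starts in germ cells and embryos, 7 had AF events, namely Dicer1, Cdk2ap1, Gnas, Tsc22d1, Tsc22d4, Guca1a and Cd63. The Dicer1 event lies within the gene on chromosome 12, with starts 2758 and 3769 bases from an annotated one. Its upstream form stood at 147 and 37.9 TPM in oocytes and 55.1 and 35.4 TPM in 1-cell embryos, with PSI of 0.909, 0.914, 0.889 and 0.850, and both forms were listed at 0 at the 8-cell stage and in blastocysts. From oocyte to 1-cell it did not pass the test (limma adjusted p = 0.936). Guca1a and Tsc22d4 did not pass it from 8-cell to blastocyst either (limma adjusted p = 0.575 and 0.768). Cd63, a tetraspanin, had 12 AF events. In the named one, with starts 101 bases apart, the log2 ratio rose by 6.52 (SE 0.58, limma adjusted p = 8.5e-05), but PSI was 0.791 to 1 in maternal and 0.986 to 0.999 in later libraries, a difference of 0.0477 and under the limit of 0.1.

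The 2-cell and sperm libraries were not in the comparison of maternal and later stages, so their PSI in the 259 called events was read separately, on a scale where 0 is the maternal and 1 the later mean. In 2-cell replicate 1, 162 of 258 events (62.8%) were nearer the later side, with a median position of 0.747, and in replicate 2, 154 of 259 (59.5%) with a median of 0.688. Both replicates were nearer the later side in 98 events and nearer the maternal side in 40 of 258. In sperm, 133 of 226 (58.8%) and 123 of 228 events (53.9%) were nearer the later side, with both libraries there in 93 of 212 and both on the maternal side in 69. Rab7, Auh, Tsc22d1, Grn and Gnas in sperm were on the later side in both libraries, and Wtap, Cdk2ap1 and Abhd6 on the maternal side. The leukocyte and epididymis markers of the sperm libraries stand beside these values.

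Consecutive stages were then compared in fits of 4 libraries each. From oocyte to 1-cell none of 1029 AF events was called by limma (background 0%), with 71 at an unadjusted p under 0.05, and PSI did not overlap in 23% (background 27.9%). From 1-cell to 2-cell 4 of 1088 were called (0.368%, background 0.238%) and 275 had an unadjusted p under 0.05, with no overlap of PSI in 47.4% (background 51.1%). From 2-cell to 4-cell none of 1222 was called (background 0%), with 214 at an unadjusted p under 0.05 and no overlap in 40.2% (background 42.6%). From 8-cell to blastocyst none of 1085 was called (background 0%), with 205 at an unadjusted p under 0.05 and no overlap in 37.7% (background 43.6%). From 4-cell to 8-cell 109 of 1161 were called (9.39%, background 4.39%), 50 with a higher and 59 with a lower upstream share, in 80 genes, and PSI did not overlap in 55% (background 53.1%). The steps were not tested against each other, and their replicates differ in spread. The counts depended on single libraries. Without 1 of the 4 libraries, 0 to 6 events were called from 4-cell to 8-cell and 0 or 1 from 1-cell to 2-cell. Without 2-cell replicate 1 or 2, 96 or 244 were called from 2-cell to 4-cell, and without blastocyst replicate 1, 44 from 8-cell to blastocyst.

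The 4 events called from 1-cell to 2-cell were those of Cdk2ap1, Tsc22d1, Dsn1 and Gm11238. Dsn1, a kinetochore protein, used almost only its downstream start until the 1-cell stage (PSI at most 0.0104). Its upstream form then stood at 21.9 and 27.6 TPM at the 2-cell stage (PSI 0.786 and 0.787), 15.4 and 20.0 TPM in 4-cell embryos (PSI 0.462 and 0.645) and 0.744 and 0 TPM in 8-cell embryos. From 1-cell to 2-cell, PSI rose by 0.784 (limma adjusted p = 0.0369). In Gm11238, a predicted gene, the downstream form stood at 14.6 and 157 TPM in 2-cell embryos and at 0.957 and 0 TPM in 1-cell embryos, and PSI fell by 0.933 (limma adjusted p = 0.0435).

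From 4-cell to 8-cell, the upstream share rose most in Fam213a, a peroxiredoxin-like protein, from 0 and 0 to 1 and 1. Its upstream form stood at 8.11 and 7.07 TPM in 8-cell embryos and at 58.8 and 64.8 TPM in blastocysts (limma adjusted p = 0.0206). Bmi1, a Polycomb protein, went from PSI of 0.338 and 0.189 to 0.808 and 1, with both forms much lower in 8-cell embryos (at most 4.66 TPM) than in 4-cell embryos (limma adjusted p = 0.037). D6Ertd474e, Zmynd8, a chromatin reader, and Nup85, a nuclear pore protein, were the other events named, with differences of PSI of 0.906, -0.759 and -0.664 and no form above 19.9 TPM in these 4 libraries. For D6Ertd474e, the summed TPM in 8-cell embryos was only 1.10 and 1.24, near the limit of 1. Its upstream form stood at 0 and 1.14 TPM in 4-cell embryos and its downstream form at 4.77 and 4.93 TPM.

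Sperm and oocyte differed in 172 of 796 AF events (21.6%, background 13.7%), 61 with a higher and 111 with a lower upstream share in sperm, in 124 genes. PSI did not overlap in 474 (59.5%, background 57.5%). The upstream share was higher in sperm for Prlr, the prolactin receptor, with starts 35826 bases apart and PSI of 1 and 1 against 0 and 0, at no more than 13.3 TPM (limma adjusted p = 0.0138). For Bscl2, which encodes seipin, the upstream form stood at 22.8 and 126 TPM in sperm and the downstream form at 197 and 669 TPM in oocytes (PSI 0.920 and 1 against 0.00186 and 0.0176, limma adjusted p = 0.00978). The downstream start of Bscl2 lies in an intron. Klf7, a transcription factor, had PSI of 0.0289 and 0.0615 in oocytes and 1 and 1 in sperm (limma adjusted p = 0.0113). Its summed TPM was only 3.21 and 1.39 in sperm, near the limit of 1, against 59.5 and 114 in oocytes. The upstream share was lower in sperm for Zp3, a zona pellucida protein, whose upstream form stood at 2.42 and 3.34 TPM in oocytes and whose downstream form stood at 2.53 and 5.80 TPM in sperm (limma adjusted p = 0.0193), for Grn (limma adjusted p = 0.00553) and for Tsc22d1 (limma adjusted p = 0.00553). Without sperm replicate 2 no event was called, with an adjusted p of 0.0598 for Grn, and without each of the other libraries 69 to 97 were. The leukocyte and epididymis markers were high in these sperm libraries, and their part in the differences was not tested.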

How the data were processed

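Short-read RNA libraries of 7 stages (2 each) and 1 PacBio pool per stage were used. The authors mapped Iso-seq3 transcripts to mm10 with GMAP, collapsed them with cDNA_Cupcake, which also removes isoforms with a degraded 5′ end and so bears on first exons, merged the stages with Cuffmerge and deposited Salmon TPM values per merged transcript. TPM keeps no read counts per transcript, so no counting interval is given. The paper lists the total reads of each short-read library, and these were unequal within stages, with many more in replicate 2 of the 1-cell and 2-cell stages. Their part in the differences between replicates was not tested. Events were rebuilt from the merged annotation, and starts were compared with GENCODE vM21 (vM20 in the paper's methods, vM22 in its reporting summary). Sequences are from RefSeq and vM21.

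The test was limma 3.58.1 (R 4.3.3, trend on mean expression) on log2((TPM of the upstream form + 1)/(TPM of the downstream form + 1)) over all 7 event types, with Benjamini-Hochberg adjustment over all events tested. Events needed a summed TPM of 1 or more in every library compared. Calls needed an adjusted p under 0.05 and a difference of mean PSI over 0.1. Pairwise fits used 4 libraries. The comparison of maternal and later stages used 10 libraries, weighted by stage. Neighbouring comparisons share libraries and are not independent.

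Named events are, among called events whose PSI does not overlap between the groups, the 3 largest differences per direction in each pairwise comparison and the 10 largest between maternal and later stages, 1 per gene, plus tested events of the listed genes, of which 1 is described for genes with several. One named event and one gene family are not reported here. Members and lists were chosen with earlier results of these data known. Replicate numbers follow the sample titles, which for the 8-cell stage run opposite to the file names. The labels name DBA/2J males and the protocol DBA/2N. No libraries had identical values. The scripts were tested on simulated data. Alternatives were other pseudocounts, filters, spreads and limits, merged first exons, a replicate block and leaving out each library.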

Additional observations from a re-analysis of the deposited data

How the results depend on the processing

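The 259 calls between maternal and later stages became 133 with a summed TPM of at least 5 and 451 with no filter, where fewer or more events are tested, and lay between 238 and 290 without single libraries. Events that exchanged the main start became 19 with a summed TPM of at least 5. Counts with first exons of a shared donor merged are not given here. From oocyte to 1-cell, 1 event was called in the fit on 12 libraries, 1 with the spread weighted by stage, and 0 to 1 without single libraries. From 1-cell to 2-cell the 4 calls became 0 with a pseudocount of 0.1 TPM, 2 with a summed TPM of at least 5, 0 with no filter, 152 in the fit on 12 libraries, 56 with weights and 0 to 1 without single libraries. From 2-cell to 4-cell, 13 were called in the fit on 12 libraries, 1 with weights and 0 to 244 without single libraries. From 4-cell to 8-cell the 109 became 5 with a pseudocount of 0.1 TPM, 1 with no filter, 12 in the fit on 12 libraries and 0 to 6 without single libraries. From 8-cell to blastocyst, 9 were called in the fit on 12 libraries, 29 with weights and 0 to 44 without single libraries. Sperm against oocyte gave 95 in place of 172 with a summed TPM of at least 5 and 0 to 97 without single libraries. The causes were not tested. Where a stage kept 1 library, that library was assumed to vary like the others of the fit.

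Of the 21 pairs of stages, 8 had a correlation over 0.1 between deviations of same-numbered libraries (range -0.569 to 0.364), so the numbers are not a pairing. With the replicate block, 0 events were called from 1-cell to 2-cell, 46 between 4-cell and 8-cell embryos, 270 between sperm and oocyte and 257 between maternal and later stages.

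Over the alternatives of the named events that were called, 381 of 382 values between maternal and later stages stayed past the threshold, Lrr1 being the exception, and 106 of 182 in the pairwise comparisons did. None of these values changed direction. The other called events and the class and family counts were not followed one by one.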
